A study of Mus musculus with 30 samples.

Results

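The circadian clock of C2C12 myotubes was described through 10 genes, the activators Arntl (also named Bmal1) and Clock, the repressors Per1, Per2, Per3, Cry1 and Cry2, the nuclear receptors Nr1d1 and Nr1d2, and the output factor Dbp. They were taken by name from a table of read counts for 55487 mouse genes. C2C12 is a mouse myoblast line that fuses into multinucleated myotubes when serum is lowered. All cells carried the genotype labelled WT and were differentiated for 4 days in low-glucose DMEM with 2% horse serum, followed by 4 days of treatment (8 days in all). The group called 2% HS kept the horse serum for those 4 days, SD was serum-deprived, MET was serum-deprived with 100 nM metformin, LEU was serum-deprived with 500 nM leucine, and MET+LEU was serum-deprived with both at these doses. Each of the 5 groups held 6 libraries of ribosome-depleted total RNA. The study asked how metformin and leucine act on myotubes that waste when serum is withdrawn.

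The mammalian clock is a transcriptional feedback loop in which the proteins of Arntl and Clock pair and activate the Per, Cry, Nr1d and Dbp genes through E-box elements. The PER and CRY proteins return to the nucleus and repress that pair, while the NR1D proteins repress Arntl by competing with the ROR receptors at a shared element. In skeletal muscle the loop times genes of fuel use and of the myogenic program, and in cultured cells serum can set its phase. The sources used here give no clock time of collection and no time series, so a changed level and a shifted phase of a rhythm cannot be told apart.

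Libraries held 12784960 to 19604103 counts with a median of 15434442.5, and all 10 clock genes passed the filter on low counts, with 188 to 4331 counts per gene and library. All 7 myotube markers (Acta1, Ckm, Des, Mb, Myog, Tnnt3 and Ttn) were detected in every library. Myogenic regulator markers (Pax7, Myf5 and Myf6) and markers of cycling cells (Mki67, Top2a, Ccnb1 and Cdk1) were also above 0 in every library. MET+LEU replicate 6 stood apart, with 5.85% of its counts on nuclear and 7.64% on mitochondrial ribosomal RNA genes, against at most 1.96% and 0.760% elsewhere. A named call that was lost without this library is given with and without it. The labels number 6 replicates per group and do not say whether they were separate cultures, so p-values measure the spread between these libraries, which may be technical. In bulk RNA, fewer cells of a type and less RNA per cell cannot be told apart.

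Promoter sequences were read from RefSeq on GRCm38.p6 as windows of 300 bases, 250 before and 50 after an annotated start, and 9 of the 10 clock genes had at least 1 window (13 windows in all), the exception being Per2. Per3 is shown because the window of this gene, whose transcript fell without serum, holds 2 copies of the D-box TTATGTAA, the element that the protein of Dbp binds (capitals). The printed stretch is the 250 bases upstream of the start on the minus strand, chr4:151044666-151044915, which overlap no annotated exon.
Per3 upstream: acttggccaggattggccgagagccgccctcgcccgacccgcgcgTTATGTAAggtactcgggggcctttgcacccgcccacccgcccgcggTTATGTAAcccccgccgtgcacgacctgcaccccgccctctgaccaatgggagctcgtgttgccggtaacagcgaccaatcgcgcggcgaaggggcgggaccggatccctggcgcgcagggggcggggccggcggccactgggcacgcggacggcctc

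The other 3 sequences belong to Nr1d1 and Arntl, which rose without serum, and to Per1, which fell with the combination, and each is shown for the motif in its window. For Nr1d1 the 250 bases upstream of the start are shown, chr11:98775378-98775627 on the minus strand, in which capitals mark the E-box variant CACGTT, read here on the opposite strand. For Arntl a stretch of 24 bases inside a first exon is shown, chr7:113207529-113207552 on the plus strand, in which capitals mark AGGTCA, the core of the element that NR1D and ROR receptors share. For Per1 a stretch of 24 bases within the gene and upstream of the window's start is shown, chr11:69098774-69098797 on the plus strand, in which capitals mark the E-box CACGTG.
Nr1d1 upstream: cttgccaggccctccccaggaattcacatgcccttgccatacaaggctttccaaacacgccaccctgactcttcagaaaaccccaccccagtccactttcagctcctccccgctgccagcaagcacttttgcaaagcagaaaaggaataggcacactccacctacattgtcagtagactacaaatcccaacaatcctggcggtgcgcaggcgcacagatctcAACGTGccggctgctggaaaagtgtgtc
Arntl exon: gaaggcagaaagtAGGTCAgggac
Per1 upstream: acccaagtcCACGTGcagggatgt

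Each motif was searched on both strands of all 32851 RefSeq promoter windows of this length. The percentages are shares of windows, whereas a clock gene is listed if any of its windows held the motif. Arntl, Clock and Per1 had several windows each, not all of which held AGGTCA, and not all windows of Per1 held the E-box. The E-box CACGTG occurred in 7.15% of them and, among the clock genes, in Per1 and Cry1. The variant CACGTT occurred in 4.68%, and in Nr1d1, Cry1 and Cry2. AGGTCA occurred in 16.3%, and in Arntl, Clock, Per1 and Nr1d2. The D-box occurred in 0.938% and, of the clock genes, in Per3, at positions -205 and -158 from the start. The full cyclic AMP element TGACGTCA occurred in 1.79% and in no clock gene window, whereas its core TGACG, which lies within the full element, occurred in 20.8% and in Per1, Cry1 and Cry2. The window of Dbp held none of these letters. A match describes the sequence of the window and was not tested as a binding site.

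Expressed per kilobase of exon so that genes could be compared, the clock genes of the 2% HS group ranged from 29.3 ± 1.07 CPM per kb for Nr1d1 (mean ± SD, n = 6, as for all means here) to 3.47 ± 0.232 CPM per kb for Arntl. CPM here are read counts relative to the library total after TMM scaling. The levels of cell type markers below are the exception, given relative to the raw library total without TMM scaling. Nr1d2 followed Nr1d1 with 18.4 ± 1.10 CPM per kb, then Clock with 15.6 ± 0.637 and Per1 with 8.35 ± 0.425 CPM per kb, and the libraries of these 4 genes did not overlap. Below them Dbp (6.50 ± 0.522), Per2 (6.22 ± 0.240), Cry1 (5.82 ± 0.559) and Per3 (5.15 ± 0.279 CPM per kb) each overlapped their neighbours among these 4, and Cry2 (3.75 ± 0.386 CPM per kb) overlapped Arntl. Without serum the bottom of the order differed. In SD, Arntl averaged 4.62 ± 0.229 CPM per kb, above Per3 (4.43 ± 0.321), which it overlapped, and Cry2 was lowest at 3.71 ± 0.194 CPM per kb. Nr1d1 and Cry2 were the highest and the lowest of the 10 in all 4 serum-deprived groups.

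The comparison of SD with 2% HS asked what 4 days without serum did to the clock transcripts. Arntl and Nr1d1 rose, Per3 and Dbp fell, and the other 6 genes did not pass the test (edgeR's quasi-likelihood test on all 30 libraries, Benjamini-Hochberg adjustment over 15907 genes, adjusted p under 0.05). The 4 called genes of 10 compare with 27.8% of all genes tested. The groups did not overlap for 4 clock genes, against 13.6% of all genes. The median log2 fold change of the 10 was -0.02, and that of all genes was 0.00279.

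Among the activators, Arntl, whose protein pairs with CLOCK, ran from 23.7 through a median of 26.1 to 28.8 CPM in 2% HS and from 31.9 through 34.7 to 37.0 CPM in SD. Every SD library lay above every 2% HS library. The change was 1.33-fold, a log2 fold change of 0.41 ± 0.05 (SE) with an adjusted p of 1.19e-08. Clock, which encodes that partner, ran from 201 through 215 to 223 CPM in 2% HS and from 208 through 222 to 236 CPM in SD, so that the groups overlapped. The log2 fold change was 0.04 ± 0.04, with an adjusted p of 0.383 and a 95% interval from -0.03 to 0.12.

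**Figure D1:**
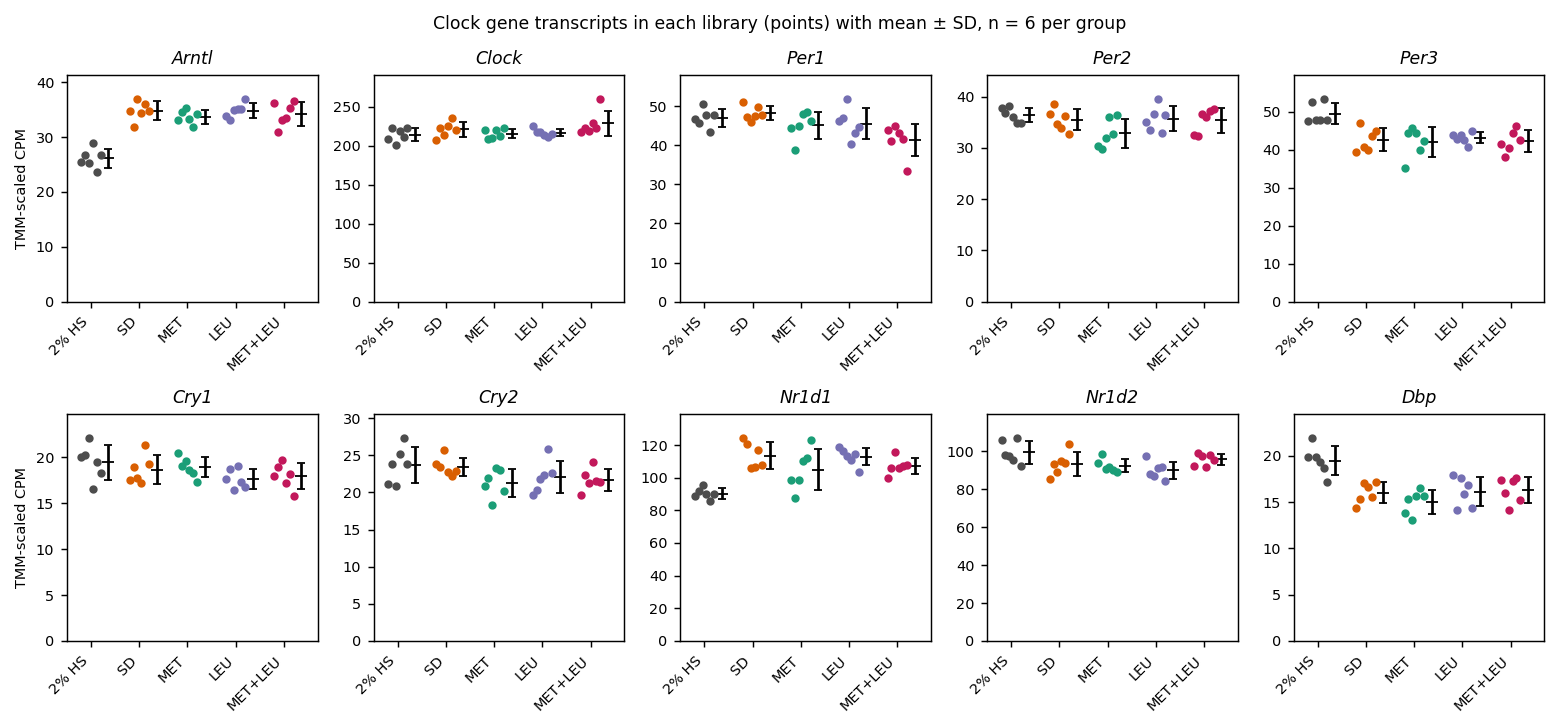
Level of each clock gene in TMM-scaled CPM (vertical axes, each starting at 0) in the 30 libraries, by group (horizontal axes), with the mean ± SD of 6 libraries beside the points. The 6 libraries of 2% HS lie below all others for Arntl (at most 28.8 CPM), and MET+LEU replicate 6 lies apart for Clock (260.4 CPM) and Per1 (33.4 CPM).

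Of the period genes, whose proteins repress the activator pair, Per3 was the called member. It ran from 47.5 through 47.9 to 53.3 CPM in 2% HS and from 39.4 through 42.1 to 47.0 CPM in SD, with no overlap between the groups. Per3 fell by 0.22 ± 0.05 on the log2 scale (adjusted p = 0.00185), to 0.861 of its level with serum. Per1, an immediate target of serum and cyclic AMP signals, had medians of 47.3 CPM in 2% HS and 47.6 CPM in SD, and a log2 fold change of 0.04 ± 0.06 (adjusted p = 0.691, 95% interval -0.08 to 0.15). Per2 had medians of 36.4 and 35.5 CPM and a log2 fold change of -0.04 ± 0.06 (adjusted p = 0.663, interval -0.15 to 0.07). Whether the 3 period genes differed from each other in their response was not tested.

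The cryptochromes, which act with the PER proteins as repressors, were not called. Cry1 ran from 16.6 to 22.1 CPM in 2% HS and from 17.2 to 21.3 CPM in SD, with a log2 fold change of -0.06 ± 0.07 (adjusted p = 0.556, interval -0.19 to 0.07). For Cry2 the ranges were 20.8 to 27.3 and 22.2 to 25.7 CPM, with a log2 fold change of -0.01 ± 0.07 (adjusted p = 0.923, interval -0.15 to 0.12). For both genes the SD libraries lay inside the range of the 2% HS libraries.

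Nr1d1, which encodes the heme-binding repressor REV-ERB alpha, ran from 85.4 through 90.2 to 95.2 CPM in 2% HS and from 105.8 through 112 to 124 CPM in SD. No libraries overlapped, and the change was 1.26-fold (log2 fold change 0.33 ± 0.05, adjusted p = 4.28e-06). Its paralog Nr1d2 had medians of 97.8 CPM in 2% HS and 93.5 CPM in SD, and a log2 fold change of -0.09 ± 0.04 that did not pass the test (adjusted p = 0.106). It passed when 1 of 2 libraries was left out, at -0.12 without 2% HS replicate 6 (adjusted p = 0.0485) and at -0.13 without SD replicate 6 (adjusted p = 0.0215). Nr1d1 shares 263 bases of exon with the antisense gene Thra (8.55% of its exon length), and how the counting treated strand is not given in the sources used here. For Thra itself the log2 fold change was 0.03 ± 0.05 (adjusted p = 0.644).

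Dbp encodes a transcription factor that the activator pair drives directly and that binds D-boxes. It ran from 17.2 through 19.6 to 21.9 CPM in 2% HS and from 14.3 through 16.1 to 17.1 CPM in SD, where the highest SD library reached 17.129 CPM and the lowest 2% HS library 17.151 CPM. The groups thus touched without overlapping. Dbp fell by 0.28 ± 0.07 on the log2 scale (adjusted p = 0.00240), to 0.822 of its level with serum. It shares 539 exon bases (18% of its exon length) with the antisense gene Sphk2, whose log2 fold change was 0.02 ± 0.07 (adjusted p = 0.838).

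Of 14 cell type markers 5 were called in the same comparison, where 27.8% of all genes were. Of the 7 myotube markers 2 were lower (Ckm and Ttn) and 1 higher (Des) in SD, and their summed level was 38286 to 40847 CPM in 2% HS against 31558 to 34058 CPM in SD. Most of that sum was Ttn, with means of 31365 CPM in 2% HS and 24993 CPM in SD. Of the 3 myogenic regulator markers 2 were lower (Pax7 and Myf6), with sums, mostly of Pax7, of 212 to 229 and 164 to 183 CPM. None of the 4 cycling markers was called, with sums of 145 to 178 and 139 to 207 CPM. Their part in the changes of the clock genes was not tested.

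**Figure D2:**
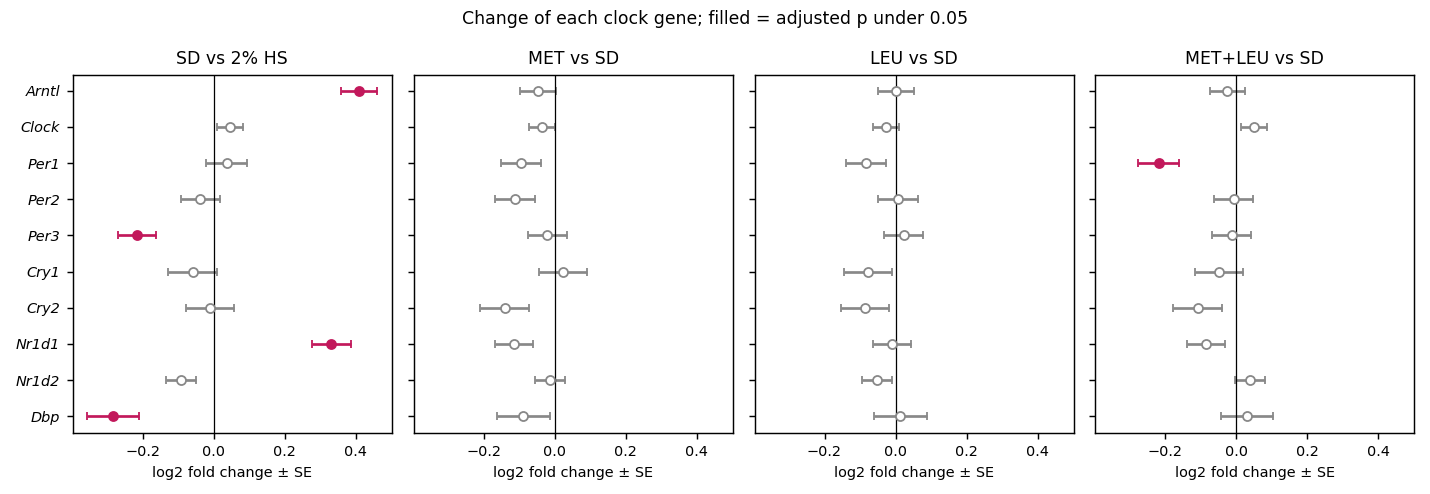
Log2 fold change ± SE (horizontal axes) of each clock gene in 4 comparisons, SD with 2% HS and each treated group with SD, with filled points for an adjusted p under 0.05. Arntl (0.41) and Nr1d1 (0.33) lie to the right and Per3 (-0.22) and Dbp (-0.28) to the left without serum, and among the treatments Per1 in MET+LEU (-0.22) is the filled point.

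Treatment with either compound alone was compared with SD. With MET, 0 of 10 clock genes were called by edgeR's quasi-likelihood test, where 0.157% of all genes were called. An unadjusted p under 0.05 was reached by 3 clock genes, and by 1597 of all 15907 genes. DESeq2 and limma-voom also called 0. Those 3 were Cry2 (log2 fold change -0.14 ± 0.07, adjusted p = 0.481), Nr1d1 (-0.11 ± 0.05, adjusted p = 0.458) and Per2 (-0.11 ± 0.06, adjusted p = 0.497), and for each of them the MET and SD libraries overlapped. Arntl averaged 33.7 ± 1.24 CPM in MET against 34.8 ± 1.72 CPM in SD, with an interval of the log2 difference from -0.14 to 0.05. The median log2 fold change of the 10 was -0.07, against -0.00469 for all genes.

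With LEU, 0 of 10 were called, where 0.553% of all genes were called, and DESeq2 and limma-voom called 0. An unadjusted p under 0.05 was reached by 0 clock genes, and by 1588 of all 15907 genes. The estimates ran from -0.09 for Cry2 to 0.02 for Per3. Arntl averaged 34.8 ± 1.31 CPM in LEU, a log2 difference from SD of 0.00178 ± 0.05 with an interval from -0.10 to 0.10. Nr1d1 averaged 112.8 ± 5.22 CPM against 113.6 ± 8.03 CPM in SD, with an interval from -0.11 to 0.09. The widest of the 10 intervals, that of Dbp, ran from -0.13 to 0.16.

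The combination was compared with SD next. Per1 fell with MET+LEU and the other 9 clock genes did not pass the test, so that 1 of 10 was called, where 18.4% of all genes were. The groups did not overlap for 1 clock gene, against 5.34% of all genes. Per1 ran from 46.1 through 47.6 to 51.0 CPM in SD and from 33.4 through 42.4 to 44.9 CPM in MET+LEU. All 6 MET+LEU libraries lay below all SD libraries, and the lowest was replicate 6. The log2 fold change was -0.22 ± 0.06 (adjusted p = 0.00545), or 0.859 of the SD level. Without MET+LEU replicate 6 it was -0.17 (adjusted p = 0.0181), and limma-voom with quality weights gave -0.16 and no call (adjusted p = 0.0568).

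Per1 averaged 45.2 ± 3.48 CPM in MET and 45.5 ± 3.93 CPM in LEU, between SD (48.2 ± 1.79) and MET+LEU (41.4 ± 4.16 CPM), and both overlapped SD and MET+LEU. All 4 cycling markers were lower in MET+LEU than in SD, where 7.8% of all genes were lower and 10.6% higher. Their summed level was 104 to 123 CPM against 139 to 207 CPM. Of the myotube markers 2 of 7 were higher (Mb and Tnnt3) and of the myogenic regulator markers 0 of 3 were called. The call of Mki67 was lost in 4 of 37 alternative fits and that of Mb in 3. No marker was at 0 in any library. The part of the markers in the lower Per1 was not tested.

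The 4 genes called without serum did not pass the test between MET+LEU and SD. Arntl averaged 34.2 ± 2.17 CPM in MET+LEU (log2 difference from SD -0.03 ± 0.05, interval -0.12 to 0.07). Nr1d1 averaged 107.0 ± 5.04 CPM (-0.09 ± 0.05, adjusted p = 0.279). Per3 averaged 42.2 ± 2.90 CPM (-0.01 ± 0.06, interval -0.12 to 0.09) and Dbp 16.3 ± 1.39 CPM (0.03 ± 0.07, interval -0.12 to 0.18). Clock averaged 228.9 ± 15.9 CPM, with a log2 difference of 0.05 ± 0.04 (adjusted p = 0.385) that was 0.00418 without MET+LEU replicate 6.

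The serum-deprived groups with treatment were also set against 2% HS. These comparisons and SD vs 2% HS share the same 6 control libraries, so their values are given side by side and are not independent of each other. Arntl was higher in all of them, with log2 fold changes of 0.36 in MET (adjusted p = 1.50e-07), 0.41 in LEU (9.43e-09) and 0.38 in MET+LEU (4.05e-08). Nr1d1 was higher by 0.22 (0.00138), 0.32 (7.24e-06) and 0.25 (2.71e-04). Per3 differed by -0.24 (5.10e-04), -0.19 (0.00483) and -0.23 (6.06e-04), and Dbp by -0.37 (6.27e-05), -0.27 (0.00346) and -0.25 (0.00431). For Arntl and Per3 no treated library overlapped a 2% HS library in any of these groups.

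In MET vs 2% HS 5 of 10 clock genes were called, where 35% of all genes were, and 3 did not overlap, against 20.2% of all genes. The fifth gene was Per2, which ran from 29.7 through 32.3 to 36.4 CPM in MET and from 34.9 through 36.4 to 38.1 CPM in 2% HS, with overlap. Its log2 fold change of -0.15 ± 0.06 (adjusted p = 0.0312) was not called in 7 alternatives, with an adjusted p of 0.103 and a log2 fold change of -0.12 without MET replicate 2. Nr1d2 missed the threshold there, at -0.10 ± 0.04 (adjusted p = 0.0514).

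In LEU vs 2% HS 5 of 10 were called, where 29.7% of all genes were, and 3 did not overlap, against 18.6%. The fifth gene was Nr1d2, which ran from 84.1 through 89.7 to 97.5 CPM in LEU and from 92.0 through 97.8 to 107 CPM in 2% HS. Nr1d2 was lower by a log2 fold change of -0.14 ± 0.04 (adjusted p = 0.00775), although its libraries overlapped, and LEU did not differ from SD by a called amount (-0.05 ± 0.04, adjusted p = 0.759).

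In MET+LEU vs 2% HS 6 of 10 were called, where 42.3% of all genes were, and 3 did not overlap, against 21%. Beside the 4 genes above, Per1 was lower (-0.18 ± 0.06, adjusted p = 0.00903) and Clock higher (0.09 ± 0.04, adjusted p = 0.0336). Per1 in 2% HS ran from 43.3 to 50.5 CPM, so that it overlapped MET+LEU at its lower end, and without MET+LEU replicate 6 its log2 fold change was -0.14 (adjusted p = 0.0267). The call of Clock was lost in 26 alternatives, and without MET+LEU replicate 6 its log2 fold change was 0.05 (adjusted p = 0.273).

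The combination was compared with each compound and the interaction of MET and LEU was tested, to ask whether the combination differed from the sum of its parts. In MET+LEU vs MET 0 of 10 clock genes were called (8.69% of all genes) and 2 had an unadjusted p under 0.05, Clock at 0.08 ± 0.04 (adjusted p = 0.142) and Per1 at -0.12 ± 0.06 (adjusted p = 0.185). In MET+LEU vs LEU 0 were called (6.28% of all genes) and 3 had an unadjusted p under 0.05, Clock (0.08 ± 0.04, adjusted p = 0.211), Per1 (-0.14 ± 0.06, adjusted p = 0.150) and Nr1d2 (0.09 ± 0.04, adjusted p = 0.204). The interaction called 0 (0.0503% of all genes), with Clock alone at an unadjusted p under 0.05 (0.11 ± 0.05, adjusted p = 0.517). Of all 15907 genes, 3588, 3425 and 1389 had an unadjusted p under 0.05 in these 3 comparisons, in that order. For Per1 the interaction was -0.04 ± 0.08 (adjusted p = 0.928), with an interval from -0.20 to 0.12. edgeR's quasi-likelihood test, DESeq2 and limma-voom each called 0 in these 3 comparisons.

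The other genes of the clock pathway were counted in 7 lists of 45 genes, of which 42 passed the filter on low counts (Rorb, Hlf and Fbxl21 had at most 8 counts in a library). In SD vs 2% HS 15 of the 42 were lower and 1 higher, where 13.9% of all genes were lower and 13.9% higher, and their median log2 fold change was -0.02. In MET vs SD 1 was lower (0.0817% of all genes), in LEU vs SD 0 were called, and in MET+LEU vs SD 6 were lower and 1 higher, where 7.8% of all genes were lower and 10.6% higher. That last count rested on the fit. Without MET+LEU replicate 6, 2 were lower and 2 higher (13.5% of all genes called in either direction, against 18.4% with it), without SD replicate 2, 4 were lower, limma-voom called 1 as higher and a fit to the compared groups alone called 0.

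The lower genes without serum lay mainly among the clock-controlled outputs, where 8 of 11 were lower and 0 higher, with a median of -0.32. Of all genes, 13.9% were lower. Klf15, a transcription factor of amino acid metabolism, was low throughout and averaged 2.48 ± 0.525 CPM in 2% HS and 0.604 ± 0.424 CPM in SD (log2 fold change -2.03 ± 0.30, adjusted p = 5.35e-07). Pfkfb3, which raises glycolytic flux, averaged 53.3 ± 5.30 and 26.9 ± 3.95 CPM (-0.99 ± 0.10, adjusted p = 1.11e-08). Nampt, the rate-limiting enzyme of NAD salvage, averaged 66.5 ± 6.94 and 43.3 ± 4.41 CPM (-0.62 ± 0.06, adjusted p = 2.76e-11). Pdk4, which shuts off pyruvate oxidation, fell by 0.49 and Tbc1d1, a regulator of glucose transporter traffic, by 0.45 on the log2 scale (adjusted p = 2.01e-08 and 6.39e-17). The mitotic kinase gene Wee1 (-0.32), the myogenic factor gene Myod1 (-0.28) and Por (-0.19), the electron donor of cytochrome P450 enzymes, were the remaining 3. Their dependence on the clock was not tested.

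The outputs also held 8 lower genes of 11 in each treated group against 2% HS, comparisons that share the control libraries, where 17.5% (MET), 15.3% (LEU) and 20.3% (MET+LEU) of all genes were lower. Against SD, 0 outputs were lower with MET, 0 with LEU and 1 with the combination. Of all genes, 0.0817% were lower with MET and 7.8% with the combination, and 0.553% were called in either direction with LEU. In MET+LEU vs MET, where 5.54% of all genes were higher, 2 outputs were higher, Pdk4 (30.4 ± 2.72 against 24.95 ± 1.87 CPM, log2 fold change 0.29 ± 0.06, adjusted p = 0.00407) and Nampt (46.3 ± 4.06 against 39.4 ± 1.39 CPM, 0.23 ± 0.06, adjusted p = 0.0141). The call of Nampt was lost without MET+LEU replicate 6 (0.21, adjusted p = 0.0515, where 4.52% of all genes were called against 8.69% with it) and without MET+LEU replicate 2 (0.19, adjusted p = 0.0516).

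**Figure D3:**
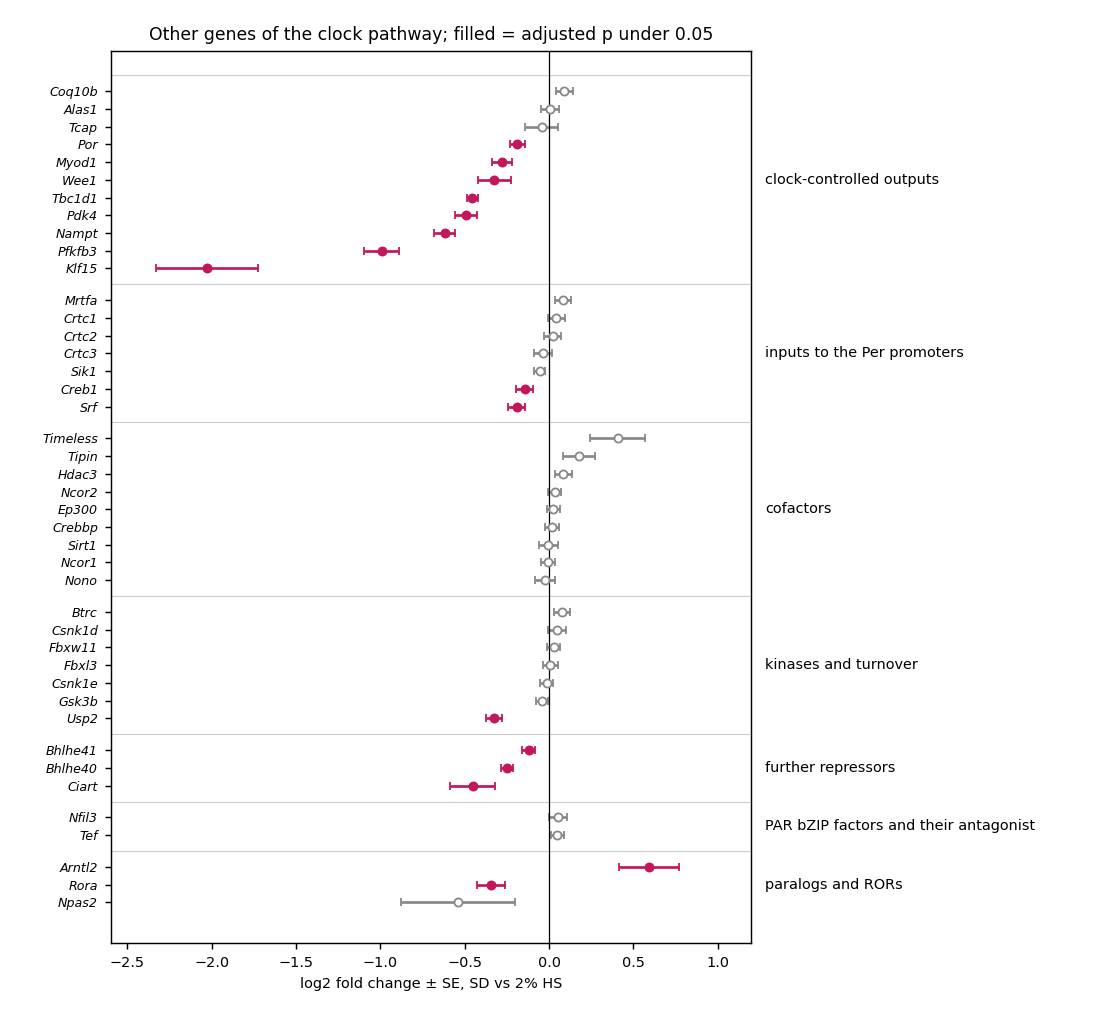
Log2 fold change ± SE (horizontal axis) of the 42 other clock pathway genes in SD vs 2% HS, by list (right) and sorted within each list, with filled points for an adjusted p under 0.05. The outputs run down to Klf15 at -2.03, the 3 further repressors all lie left of 0, and Arntl2 (0.59) is the filled point on the right.

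The further repressors of the activator pair were lower in 3 of 3 cases in SD vs 2% HS, where 13.9% of all genes were lower. Their median was -0.25. Bhlhe40 (DEC1) averaged 352 ± 8.12 CPM in 2% HS and 297 ± 14.9 CPM in SD (-0.25 ± 0.04, adjusted p = 3.96e-07), Ciart fell by 0.45 ± 0.13 on the log2 scale from a low level (adjusted p = 0.00830) and Bhlhe41 by 0.12 ± 0.04 (adjusted p = 0.0189, and 0.0596 without SD replicate 3). Bhlhe40 was also the called pathway gene in MET vs SD, where it averaged 261 ± 7.69 CPM (-0.19 ± 0.04, adjusted p = 0.0159). That call was lost without SD replicate 2 (-0.17, adjusted p = 0.0870), MET replicate 3 (-0.18, adjusted p = 0.0532) or MET replicate 4 (-0.17, adjusted p = 0.0715).

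Paralogs and ROR receptors moved both ways, with 1 higher and 1 lower of 3 tested and a median of -0.34. Of all genes, 13.9% were higher and 13.9% lower. Arntl2, the paralog of Arntl, was higher (0.59 ± 0.18, adjusted p = 0.00893, and 0.45 with an adjusted p of 0.0567 without SD replicate 4). It averaged 1.61 ± 0.377 CPM in 2% HS and 2.46 ± 0.557 CPM in SD, with 17 to 57 counts per library over all groups. Rora, a receptor that activates Arntl, was lower (-0.34 ± 0.08, adjusted p = 8.61e-04) at 21.7 ± 1.95 and 17.1 ± 2.16 CPM.

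In SD vs 2% HS, where 13.9% of all genes were lower, 1 of 7 kinases and turnover factors was lower. It was Usp2, a deubiquitinase (-0.33 ± 0.05, adjusted p = 4.00e-07), and the list's median was 0.00758. Of 7 inputs to the Per promoters 2 were lower, the transcription factor genes Srf (-0.19 ± 0.05, adjusted p = 0.00189) and Creb1 (-0.14 ± 0.05, adjusted p = 0.0239), with a median of -0.03. The call of Creb1 was lost when SD replicate 1 or 3 or 2% HS replicate 1 or 2 was left out, with estimates from -0.13 to -0.11 and an adjusted p of at most 0.0931. None of 9 cofactors (median 0.03) and none of 2 PAR bZIP genes and antagonists (median 0.05) was called by edgeR's quasi-likelihood test.

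In MET+LEU vs SD, where 7.8% of all genes were lower and 10.6% higher, 3 of the 7 inputs to the Per promoters were lower. The median of the 7 was -0.11, against -0.00502 for all genes. The lower 3 were Crtc1, a coactivator of CREB (-0.18 ± 0.05, adjusted p = 0.00794), Srf (-0.16 ± 0.05, adjusted p = 0.0178) and Sik1, a kinase that restrains CREB coactivators (-0.11 ± 0.04, adjusted p = 0.0245). Their part in the lower Per1 was not tested. Of the kinases and turnover factors Csnk1d (-0.16 ± 0.05, adjusted p = 0.0290) and Fbxw11 (-0.12 ± 0.04, adjusted p = 0.0251) were lower, both of which act on PER protein stability. Of the outputs Coq10b was lower (-0.15 ± 0.05, adjusted p = 0.0250), and of the cofactors Ncor1, the corepressor that NR1D proteins recruit, was higher (0.13 ± 0.04, adjusted p = 0.0302).

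Each of these 7 calls was lost in at least 2 of 37 refits. Without MET+LEU replicate 6, Crtc1 (-0.17, adjusted p = 0.0118) and Srf (-0.15, adjusted p = 0.0266) were still called, whereas Csnk1d (-0.11, adjusted p = 0.0755), Fbxw11 (-0.10, adjusted p = 0.0775), Sik1 (-0.08, adjusted p = 0.0883), Coq10b (-0.14, adjusted p = 0.0510) and Ncor1 (0.06, adjusted p = 0.249) were not, and Tcap and Pdk4 were called as higher. The median of the 7 inputs was then -0.08. Srf was not called without SD replicate 1 (-0.13, adjusted p = 0.0630), and no input was called by limma-voom or by the fit to the compared groups alone. Leaving out other libraries also ended calls, namely SD replicate 1 for Csnk1d, Sik1 and Ncor1, SD replicate 2 for Csnk1d, Fbxw11 and Ncor1, and SD replicates 3 and 6 and MET+LEU replicate 5 for Ncor1.

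Between libraries of the same group, the SD of log2 CPM of the clock genes ran from 0.0618 for Clock to 0.123 for Dbp. The median of all genes tested was higher (0.143), but those include genes with fewer counts, and spread was not compared at a matched level. The share of variance that lay between the 5 groups was 84.1% for Arntl, 61.9% for Nr1d1, 54.9% for Dbp and 49.9% for Per3, against a median of 31.2% over all genes, and it was lowest for Cry1 at 19.7%.

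Within groups, after each group's mean was removed, the 45 pairs of clock genes were compared across the 30 libraries. No pair held after adjustment over the 45 pairs (permutation test with 100000 permutations of libraries within groups, two-sided), 3 had an unadjusted p under 0.05, and 22 pairs had a positive and 23 a negative Pearson's r. Per2 and Nr1d1 gave the highest r, 0.594 (permutation p = 0.00388, adjusted p = 0.175), with Spearman's rho of 0.523 (permutation p = 0.00942, adjusted p = 0.212) and an r of 0.597 without the 2 libraries farthest from the median of Per2. Within the 5 groups that pair's r ran from -0.470 in LEU to 0.892 in MET. Per1 and Nr1d1 gave 0.460 (permutation p = 0.0129, adjusted p = 0.290) and a rho of 0.520 (permutation p = 0.00527, adjusted p = 0.212), with 0.428 without the 2 farthest libraries. Per1 and Nr1d2 gave -0.340 (permutation p = 0.0442, adjusted p = 0.456) and a rho of -0.362 (permutation p = 0.0568, adjusted p = 0.365), with -0.337 without the 2 farthest libraries. All pairs share the libraries and their depth.

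**Figure D4:**
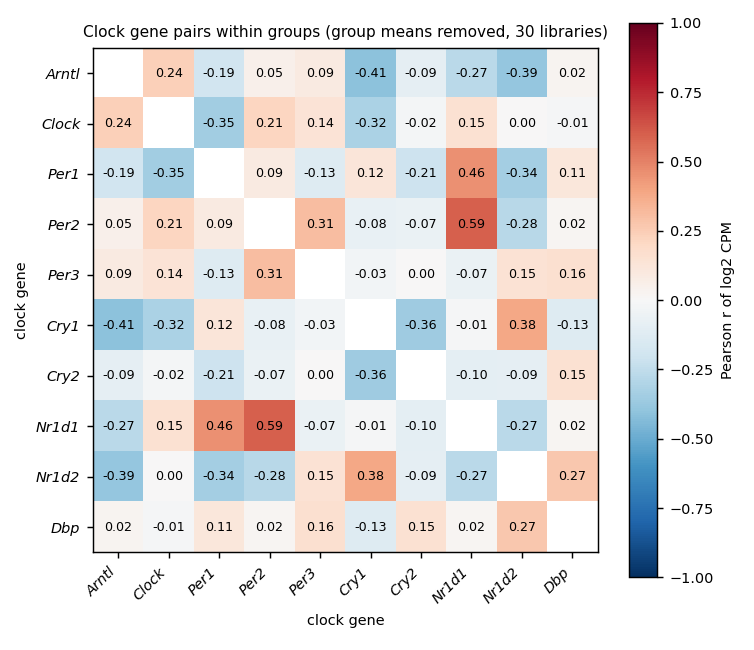
Pearson's r of log2 CPM for each pair of clock genes (both axes) across 30 libraries after removal of the group means, with the colour scale running from -1 to 1. Values run from -0.41 for Arntl and Cry1 to 0.59 for Per2 and Nr1d1, and no pair held after adjustment.

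Across all 30 libraries, group differences included, the 2 tested genes most like each clock gene were listed by Pearson's r of log2 CPM, as a description over libraries that share depth and treatment. Arntl was closest to Slc1a3 (r = 0.921) and Slc6a2 (0.920), Clock to Ankrd17 (0.884) and Wac (0.873), and Nr1d1 to Ly6e (0.850) and Ecm1 (0.845). Per3 was closest to Clcn3 (0.837) and Pgap1 (0.819), Per1 to Cic (0.827) and Sf1 (0.804), and Dbp to Ggta1 (0.796) and Gm42819 (0.791). The values were lower for Nr1d2 with Sspn (0.747) and Plcl2 (0.725), Cry2 with Gm7694 (0.744) and Atp6ap1 (0.602), Per2 with Top3b (0.688) and Gm43682 (0.678), and Cry1 with Dact1 (0.676) and Gm38010 (0.667).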

How the data were processed

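Gene-level read counts were analysed as deposited. The authors isolated RNA from myotubes, removed ribosomal RNA with a stranded kit, sequenced the libraries in pairs of reads and counted reads per gene. The submitters' processing notes name cutadapt 1.16, STAR 2.7.6a, featureCounts 1.6.3, DESeq2 1.30.1 and GRCm38, and the annotation release and strand setting are not given in the sources used here. Of 55487 identifiers 55141 matched GENCODE M21, which gave symbols and exon lengths, and 346 with 0.0268% of the counts did not.

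Genes were kept by filterByExpr (minimum count 10, minimum total count 15), which left 15907. Libraries were scaled by TMM, and a mean per group was fitted to all 30 libraries in edgeR 4.0.16 (R 4.3.3, quasi-likelihood, robust), with Benjamini-Hochberg adjustment, where an adjusted p under 0.05 was called. SE was the log2 fold change divided by the square root of F, and 95% intervals were the estimate ± 1.96 SE. Reads shared with paralogs or antisense genes could not be separated. Correlations used log2 CPM with a prior count of 2.

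Alternatives were RLE and upper-quartile scaling, a filter of more than 5 counts, DESeq2 1.42.0, limma-voom (limma 3.58.1) with quality weights, fits to the groups compared alone, a replicate block, a threshold of 0.01, a prior count of 0.5 for correlations, and leaving out each library. For the pathway and marker genes the refits were added after the data were seen.

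All 10 clock genes were described in every comparison. The 45 other pathway genes were counted (1 further gene is not reported here), those past the threshold in SD vs 2% HS or MET+LEU vs SD were named, and the 2 genes most like each clock gene were listed by r. The members and lists were chosen with earlier results of these data known.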

Additional observations from a re-analysis of the deposited data

Results flagged for a closer look

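Of 50 gene and group combinations examined, 2 held a library far from the other 5, by a gap to its nearest neighbour above 0.625 of the group's range, which chance gives in about 1 of 20 combinations. Both were MET+LEU replicate 6, the library with the high share of ribosomal RNA counts. Clock reached 260.4218 CPM there, with 228.8567 CPM in the nearest library. Per1 was at 33.3729 CPM, with 41.0841 CPM in the nearest. The part of the ribosomal RNA share in these values was not tested, and the log2 fold changes without this library stand beside the results.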

How the results depend on the processing

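Counts of called clock genes differed from the main analysis by over 1.5 times in 1 of 380 recalculations of the 10 comparisons. MET+LEU vs SD gave 0 called genes with limma-voom (Per1 at a log2 fold change of -0.16 and an adjusted p of 0.0568), and the cause was not tested. Of 798 recalculations of the 21 called gene values, 764 kept their call, 34 lost it and 0 changed direction. The losses were 26 for Clock in MET+LEU vs 2% HS, 7 for Per2 in MET vs 2% HS and 1 for Per1 in MET+LEU vs SD. The 4 calls of SD vs 2% HS held in every alternative run. For the pathway genes, refits chosen after the data were seen lost 6 of 592 calls in SD vs 2% HS and 30 of 259 in MET+LEU vs SD, and limma-voom called 8 markers against 5 in SD vs 2% HS.

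Values that changed sign were all uncalled. With limma-voom the LEU vs SD estimates were 0.00973 for Nr1d1 and -0.00932 for Dbp. Leaving out 1 library at a time, Cry2 in SD vs 2% HS ran from -0.04912 to 0.03105. In MET vs SD, Per3 ran from -0.04232 to 0.02932, Cry1 from -4e-05 to 0.06501 and Nr1d2 from -0.03562 to 0.02268. In LEU vs SD, Arntl ran from -0.019 to 0.02238, Per2 from -0.02195 to 0.03515, Nr1d1 from -0.02842 to 0.0195 and Dbp from -0.01666 to 0.05095. In MET+LEU vs SD, Per2 ran from -0.03559 to 0.01315, Per3 from -0.04908 to 0.01091 and Dbp from -0.00994 to 0.06652.

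Same-numbered replicates of different groups had a mean correlation of 0.0157 (from -0.0913 to 0.142), against a mean of -0.00314 for different numbers. Of 30 libraries, 11 were closest to their own number, where any of the 6 numbers could have been the closest. Whether same-numbered libraries deviated together was not tested. The main analysis did not take the numbers to pair the samples. A replicate block left the count of called clock genes in SD vs 2% HS at 4 and in MET+LEU vs SD at 1. Among the 45 gene pairs, 1 pair (Per2 and Nr1d1, r = 0.636) held with the block. Leaving out 1 library gave 0 to 1 pairs, with 1 (the same pair, r = 0.639) without LEU replicate 6. With 6 libraries per group and 188 to 4331 counts per clock gene, the smallest change of a clock gene that stayed called in every alternative was -0.14 on the log2 scale (Nr1d2 in LEU vs 2% HS).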
